A study of Rattus norvegicus with 9 samples.

Results

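Genes of glycolysis and lactate metabolism were followed in RNA from rat spleen. They were taken as the entries of the deposited count file whose symbol is on a list of 32 genes, and 31 of the 34408 entries of the file matched. Glycolysis splits glucose into pyruvate in the cytosol, and lactate dehydrogenase then interconverts pyruvate and lactate. Monocarboxylate transporters carry lactate across the cell membrane, and the pyruvate dehydrogenase complex instead feeds pyruvate to the mitochondria unless its kinases switch it off. In the spleen, activated lymphocytes and neutrophils lean on this pathway, and so do red cells, which lose their mitochondria as they mature.

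There were 3 libraries in each of 3 groups of wild-type rats: TAA with celecoxib, TAA, and control. TAA stands for thioacetamide, which injures the liver and in rodents leads to cirrhosis with an enlarged spleen. It was injected into the peritoneum every 3 days, with 8 weeks at 200 mg/kg followed by 8 weeks at 100 mg/kg, and rats of the TAA+celecoxib group had the same course. Celecoxib, an inhibitor of cyclooxygenase 2, was given to that group at 20 mg/kg/day in the final 8 weeks. The labels give no strain, sex or age for the rats and no vehicle for the controls, and a group given celecoxib without TAA was not analysed here. The labels do not say that each library came from a separate animal, so p-values measure the spread between these libraries, which may be technical.

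Libraries held 14211789 to 19014761 counts. The tissue is labelled spleen and its cells splenocytes, and both T cell and B cell markers were plentiful, at summed levels of 677 to 1176 CPM and 1994 to 3917 CPM. CPM are counts scaled to a library size corrected by the TMM method, and serve to compare a gene between libraries. On the first principal component TAA+celecoxib 1 and control 1 lay far from the rest, at -52.3 and -55.4 where the others ran between -0.973 and 44.0, with the lowest macrophage sums (2357 and 2944 CPM). Hepatocyte markers summed to 850.2 CPM in TAA 1 and 111 CPM in control 1, against at most 0.778 CPM elsewhere. In whole tissue, fewer cells of a type and less RNA per cell cannot be told apart.

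Gapdh, the textbook glycolytic reference gene, was the listed gene with no entry of its own symbol. The 2 entries under the symbol LOC108351137 are described in the file as glyceraldehyde phosphate dehydrogenase but were not counted as members. The larger of them (ENSRNOG00000018630) averaged 386.5 ± 37.5 CPM in TAA+celecoxib, 427 ± 13.2 CPM in TAA, against 366 ± 27.6 CPM in control (SD, n = 3 each). Its log2 fold change was 0.22 ± 0.12 (SE) for TAA against control, -0.14 ± 0.12 for TAA+celecoxib against TAA and 0.08 ± 0.12 for TAA+celecoxib against control. The smaller one (ENSRNOG00000030963) averaged 118 ± 11.7 CPM in TAA+celecoxib, 155 ± 6.61 CPM in TAA, against 133 ± 6.10 CPM in control (SD, n = 3 each), with log2 fold changes of 0.22 ± 0.11, -0.38 ± 0.11 and -0.16 ± 0.11 in the same comparisons. The adjusted p of both in edgeR's quasi-likelihood test was 0.788 for TAA against control and 0.890 for TAA+celecoxib against TAA. Of the 31 members found, 30 passed the filter on low counts, and Eno2, the neuronal enolase, did not.

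The core enzymes of the pathway were among the most abundant transcripts of the spleen. Levels of different genes are compared as deposited FPKM, which is scaled by gene length and library. Median FPKM over the 9 libraries was highest for Aldoa (aldolase A, 279), Ldha (the A subunit of lactate dehydrogenase, 239.9) and Eno1 (alpha-enolase, 223). Pkm (pyruvate kinase) followed at 185, then Pgk1 (phosphoglycerate kinase) at 181, Pgam1 (phosphoglycerate mutase) at 172 and Gpi (glucose phosphate isomerase) at 167. These 7 enzymes each ranked between the 97.25 and 98.4 percentile of the 15954 genes tested, and over the 9 libraries their CPM had coefficients of variation of 8.87% to 13.3%. They made up 77.4% to 82.0% of the summed FPKM of the members in TAA+celecoxib libraries, 78.4% to 81.7% in TAA libraries and 81.8% to 82.5% in controls.

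The other members, among them the transporters and regulatory steps, were lower. The level of Tpi1 is uncertain because of a similar entry described below. A further 11 members had a median of 11.4 to 47.3 FPKM, 11 had 1.15 to 8.27 FPKM, and Slc2a3 and Eno2 were at 0.832 and 0.0314 FPKM. The widest spreads among members above 1 FPKM were those of Pdk4 (60.6% in CPM), Tpi1 (57.2%), Slc16a1 (56.7%), Slc16a3 (50.3%) and Hk3 (48.0%), while Pfkp (8.13%), Pfkfb3 (9.02%) and Pfkm (9.58%) were as even as the core enzymes. The members together took 0.319% to 0.356% of counts in TAA+celecoxib libraries, 0.357% to 0.393% in TAA libraries and 0.339% to 0.361% in control libraries. TAA 3 had the highest CPM for 8 of the 30 members tested and TAA+celecoxib 2 the lowest for 12 of them.

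**Figure D1:**
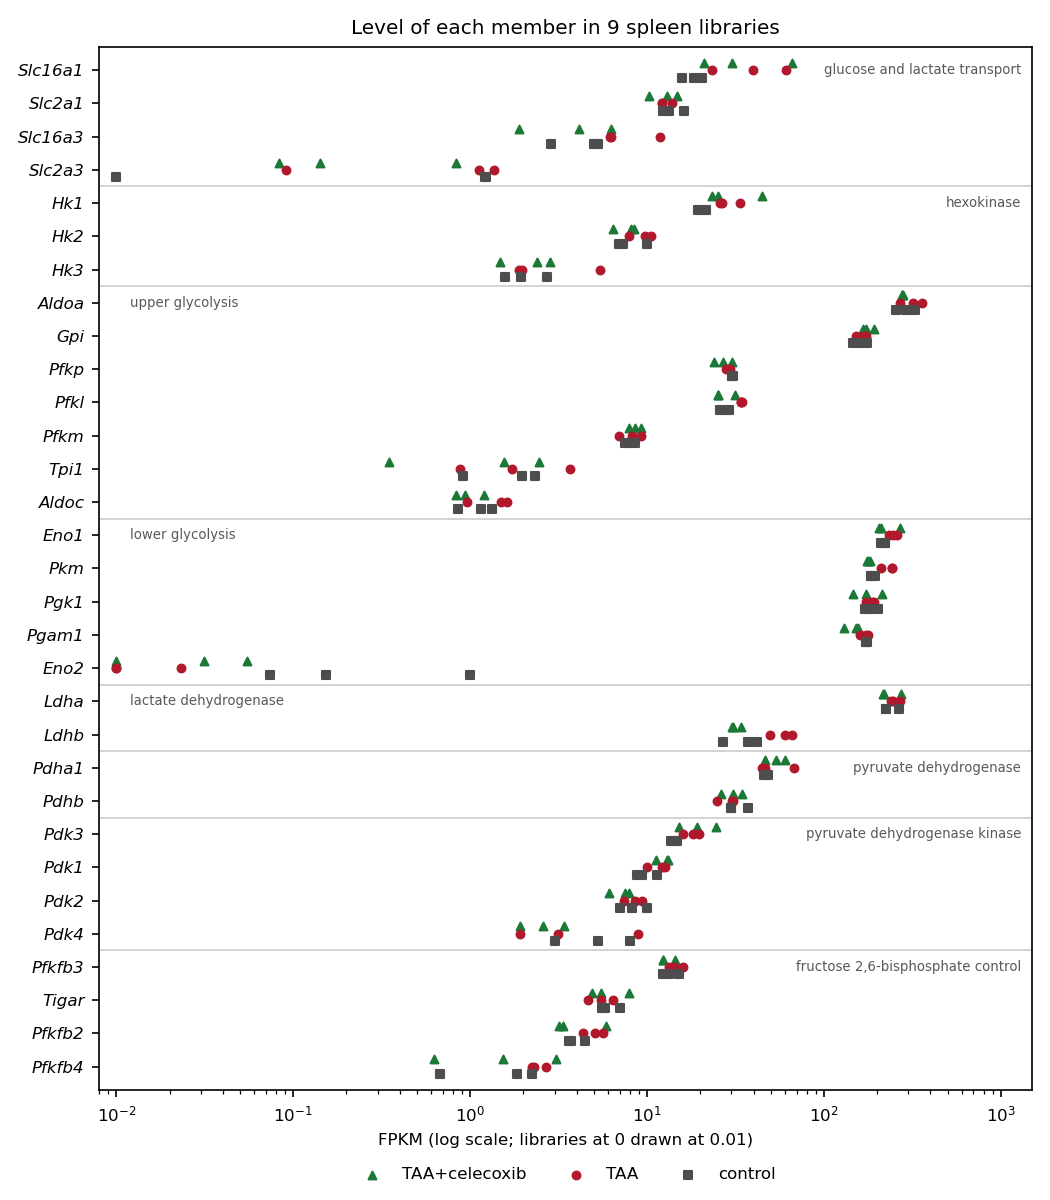
FPKM of 31 members on a log scale in each of the 9 libraries, grouped by step of the pathway and ordered by median. Triangles are TAA+celecoxib, circles TAA and squares control, and libraries at 0 are drawn at 0.01. Core enzymes such as Aldoa, Ldha and Eno1 lie to the right in tight clusters, while Slc16a1, Pdk4 and Tpi1 are spread widely.

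The member with the smallest unadjusted p in TAA against control, and in TAA+celecoxib against TAA, was Ldhb, the B subunit of lactate dehydrogenase (ENSRNOG00000013000, chromosome 4, 176701983 to 176720012, coordinates as in the file). Ldhb was at 42.1, 40.2 and 45.8 CPM in the TAA+celecoxib libraries, at 81.6, 89.7 and 66.1 CPM in the TAA libraries and at 57.1, 36.4 and 49.9 CPM in the control libraries. The lowest TAA library stood above the highest of both other groups, which overlapped each other. The fitted log2 fold change was 0.73 ± 0.18 (SE) for TAA against control (edgeR adjusted p = 0.788) and -0.89 ± 0.18 for TAA+celecoxib against TAA (edgeR adjusted p = 0.890). For TAA+celecoxib against control it was -0.16 ± 0.18 (edgeR adjusted p = 0.957). In DESeq2, an alternative test, Ldhb had an adjusted p of 0.0147 for TAA+celecoxib against TAA and 0.0702 for TAA against control. With any 1 library left out, the value for TAA+celecoxib against TAA stayed between -1.003 and -0.79.

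Among the marker lists, the macrophage sum was also highest in the TAA libraries. It was 2357, 4922 and 4492 CPM in TAA+celecoxib, at 5894, 5861 and 8747 CPM in TAA, against 2944, 5393 and 5019 CPM in control, with Vcam1 (417 to 1783 CPM) and C1qc (296 to 1385 CPM) the most abundant. The TAA libraries were thus above every other library in this sum, as they were for Ldhb. Vcam1 itself overlapped between the groups. It was at 870, 893.8 and 1783 CPM in TAA, with 984.7 CPM in TAA+celecoxib 2 and 899 CPM in control 2. The order within TAA also differed, with TAA 3 highest in this sum and lowest in Ldhb. The listed T cell markers, of which Cd4 and Lck were the most abundant, summed to 1093, 755.5 and 1002 CPM in TAA+celecoxib. They summed to 677, 812 and 686 CPM in TAA, against 1176, 962 and 921.5 CPM in control. That put TAA below every control and TAA+celecoxib 2 within the TAA range. Lck followed this sum, at 136.8, 160.7 and 102.5 CPM in TAA against 282.6, 181.6 and 186.1 CPM in control. Cd4 did not, at 184, 268.5 and 281.7 CPM in TAA against 167.3, 240.2 and 234.1 CPM in control. Like the macrophage sum, Cd4 was lowest in TAA+celecoxib 1 and control 1 and highest in TAA 3. The T cell sum includes Cd4, so it is not a clean measure of T cells. Markers of megakaryocytes and platelets, led by Pf4 and Itga2b, summed to 184, 193 and 241 CPM in TAA+celecoxib, to 339.5, 323 and 238 CPM in TAA, against 164, 191 and 234 CPM in control, so that TAA 3 lay just below TAA+celecoxib 3. The part of these cells in the Ldhb values was not tested.

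Ldha, whose subunit predominates in muscle and other tissues that make much lactate, showed smaller differences. Ldha averaged 382 ± 59.3 CPM in TAA+celecoxib, 406 ± 24.7 CPM in TAA, against 384 ± 41.8 CPM in control (SD, n = 3 each), and the 3 groups overlapped. Its fitted log2 fold change was 0.08 ± 0.14 for TAA against control and -0.09 ± 0.14 for TAA+celecoxib against TAA. Ldhb, the subunit that predominates in heart, therefore took different shares of the pair: 10.04%, 12.3% and 13.4% of their summed FPKM in TAA+celecoxib, 19.6%, 19.8% and 17.0% in TAA, and 13.6%, 10.7% and 14.3% in control. All 3 TAA libraries lay above the other 6. The share rests on the same Ldhb values as above and was given no test of its own.

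The promoters of the pair are shown because the subunits parted in these libraries and because Ldha is a textbook target of hypoxia-inducible factor. The sequences are from RefSeq on build GRCr8, 250 bases before to 50 bases after the start, read 5′ to 3′ on the gene's strand. Capitals mark the core of the hypoxia response element (ACGTG or GCGTG on either strand) and the E-box CACGTG.
Ldha, chr1:106507842-106508141, plus strand: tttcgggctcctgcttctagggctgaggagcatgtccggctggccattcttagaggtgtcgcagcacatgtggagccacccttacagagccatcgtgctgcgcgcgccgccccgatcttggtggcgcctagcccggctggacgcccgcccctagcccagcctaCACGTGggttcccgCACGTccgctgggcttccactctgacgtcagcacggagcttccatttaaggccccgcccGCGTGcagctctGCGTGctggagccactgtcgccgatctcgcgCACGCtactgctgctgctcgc
Ldhb, chr4:177177359-177177658, minus strand: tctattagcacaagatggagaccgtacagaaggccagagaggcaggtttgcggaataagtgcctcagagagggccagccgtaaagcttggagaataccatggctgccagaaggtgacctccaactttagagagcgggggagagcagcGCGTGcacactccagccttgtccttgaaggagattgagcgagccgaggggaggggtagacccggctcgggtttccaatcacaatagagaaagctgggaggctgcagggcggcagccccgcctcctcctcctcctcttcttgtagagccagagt
The Ldha window held 6 matches to the response element core, 2 of them inside its 1 E-box, and the Ldhb window held 1 match and no E-box. Among the 29 members with an entry in the promoter table, 19 (65.5%) held the core, against 41.6% of all 33469 promoters of that length. An E-box was found in 5 of the 29 (17.2%), against 6.42% of all. The members' promoters were also richer in G and C, with a median of 61.3% against 51.7%, and the motifs are themselves made mostly of these bases. A match describes letters in the window and is not evidence of binding.

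Pkm and Pfkl also had all 3 TAA libraries above every other library, as did the macrophage sum, and the part of macrophages or T cells in their values was not tested. Pkm, which makes pyruvate in the final step of glycolysis, was at 386, 377 and 390.4 CPM in TAA+celecoxib, at 457, 525 and 521 CPM in TAA, against 405, 397 and 417 CPM in control. The TAA libraries were above all controls, and the TAA+celecoxib libraries were below both. The fitted log2 fold change was 0.30 ± 0.10 for TAA against control (edgeR adjusted p = 0.788) and -0.38 ± 0.10 for TAA+celecoxib against TAA (edgeR adjusted p = 0.890).

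The authors' counting could split reads between Pkm and entries much like it, and 2 further entries are described as M2 pyruvate kinase-like. LOC100364062 held 147 to 281 counts per library, and AABR07044711.1 held 910, 851 and 483 counts in TAA+celecoxib, 155, 381 and 293 counts in TAA and 173, 413 and 722 counts in control. With their counts added to Pkm, its log2 fold changes were 0.27 for TAA against control, -0.27 for TAA+celecoxib against TAA and 0.00017 for TAA+celecoxib against control. Pkm with these 2 entries was at 454, 449.6 and 426 CPM in TAA+celecoxib and 484, 568.5 and 551 CPM in TAA. In control it was at 425, 433.5 and 471 CPM. On that count the TAA libraries were still above all others, while TAA+celecoxib and control overlapped. AABR07044711.1 was highest in TAA+celecoxib 1 and TAA+celecoxib 2, and how reads were shared among the 3 entries was not tested.

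Pfkl, the liver-type phosphofructokinase of the committed step, was at 89.4, 69.4 and 69.7 CPM in TAA+celecoxib, at 94.8, 94.7 and 94.7 CPM in TAA, against 82.1, 72.1 and 77.0 CPM in control. TAA libraries were nearly identical and stood above every other library. Hepatocyte sums were at most 0.343 CPM in TAA 2 and TAA 3, and the part of hepatocytes in the Pfkl values was not tested. The fitted log2 fold change was 0.30 ± 0.12 for TAA against control (edgeR adjusted p = 0.788) and -0.31 ± 0.12 for TAA+celecoxib against TAA (edgeR adjusted p = 0.890). Pfkp, the platelet-type isozyme, was at 70.0, 53.6 and 61.2 CPM in TAA+celecoxib, at 65.9, 66.6 and 62.6 CPM in TAA, against 69.2, 69.5 and 67.6 CPM in control. Its TAA values lay just below the control values, by a log2 fold change of -0.08 ± 0.11 where Pfkl had 0.30 ± 0.12. Pfkp ran at 0.945 to 1.07 times the FPKM of Pfkl in TAA+celecoxib. It ran at 0.808 to 0.861 times in TAA and 1.03 to 1.18 times in control. Pfkm, the muscle type, was lower, at 0.273 to 0.364, 0.203 to 0.272 and 0.278 to 0.293 times the FPKM of Pfkl in TAA+celecoxib, TAA and control libraries.

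**Figure D2:**
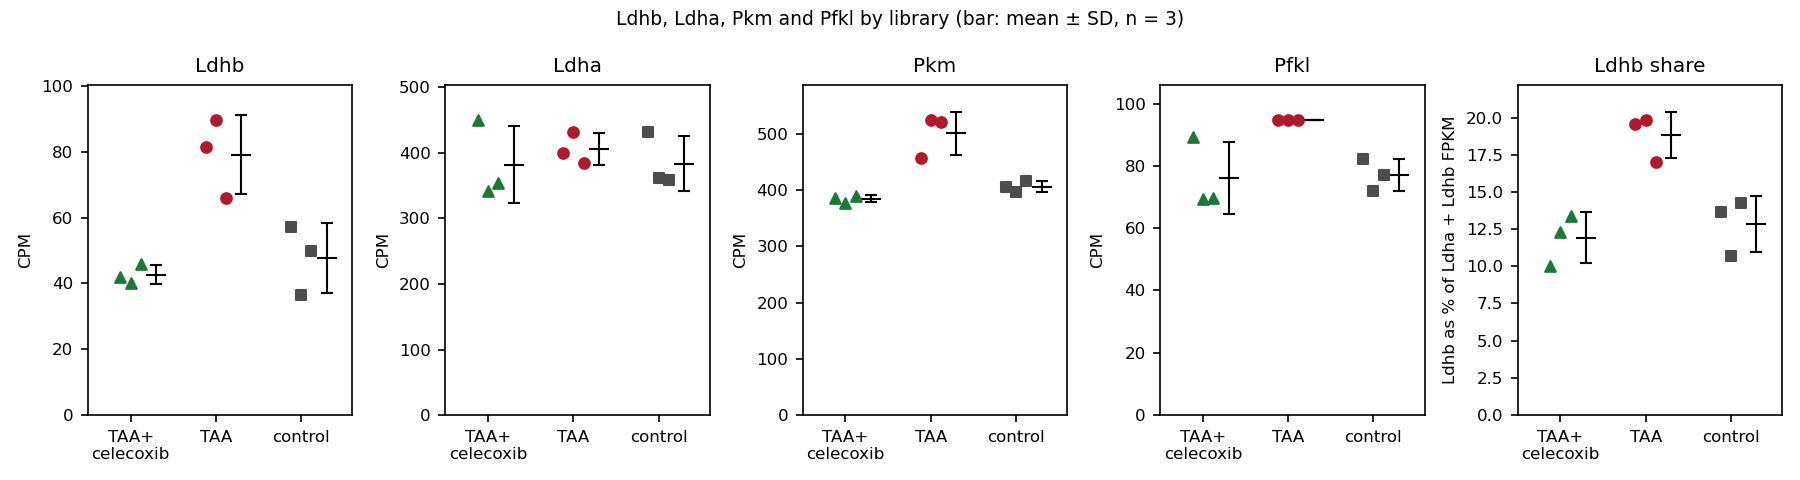
CPM of Ldhb, Ldha, Pkm and Pfkl, and Ldhb as a percentage of the summed Ldha and Ldhb FPKM, in each of the 9 libraries, with bars for mean ± SD (n = 3 per group). Ldhb, Pkm, Pfkl and the Ldhb share are higher in the TAA libraries than in every TAA+celecoxib and control library, and Ldha overlaps between the groups.

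The lactate transporters varied widely between libraries of a group. Slc16a1 encodes MCT1, which carries lactate and other monocarboxylates. It was at 77.7, 164 and 52.8 CPM in TAA+celecoxib, at 153, 58.5 and 98.4 CPM in TAA, against 52.2, 46.4 and 39.0 CPM in control. Every library of rats given TAA was above the highest control, by little in TAA+celecoxib 3. The fitted log2 fold change was 1.17 ± 0.44 for TAA against control (edgeR adjusted p = 0.788), and 0.78 without TAA 1. For TAA+celecoxib against control it was 1.10 ± 0.44 (edgeR adjusted p = 0.911), and 0.51 without TAA+celecoxib 2.

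Erythroid markers moved with Slc16a1. The 11 erythroid markers in the file summed to 1594, 5351 and 658 CPM in TAA+celecoxib, to 4398, 530.1 and 2008 CPM in TAA, against 851, 416 and 167 CPM in control, and TAA+celecoxib 2, TAA 1 and TAA 3 led in both measures. Slc4a1, the anion exchanger of red cells, and Tfrc, the transferrin receptor, were the most abundant, at 12.1 to 1776 CPM and 61.2 to 681 CPM, while Gata1 was at 0 to 1.23 CPM. The 10 markers of dividing cells were likewise highest in TAA+celecoxib 2 and TAA 1, but not in TAA 3. Their sums were 896, 1670 and 526 CPM in TAA+celecoxib and 1241, 761 and 680 CPM in TAA. In control they were 746, 433 and 420 CPM. The part of erythroid or dividing cells in the Slc16a1 difference was not tested. Emb, which encodes embigin, a membrane partner of monocarboxylate transporters, was high in TAA+celecoxib 2, TAA 1 and TAA 3. It was at 38.4, 142 and 27.3 CPM in TAA+celecoxib and 116, 32.05 and 71.7 CPM in TAA. In control it was at 25.6, 22.5 and 23.4 CPM.

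Hk1, the broadly expressed hexokinase that traps glucose in the cell, was at 64.7, 119.8 and 67.55 CPM in TAA+celecoxib, at 90.9, 69.7 and 71.6 CPM in TAA, against 58.7, 56.1 and 52.2 CPM in control. All 6 libraries of rats given TAA lay above the controls. TAA+celecoxib 2 and TAA 1, with the highest erythroid and dividing cell sums, were again highest. The part of these cells in the Hk1 values was not tested. The fitted log2 fold change was 0.48 ± 0.23 for TAA against control (edgeR adjusted p = 0.788). For TAA+celecoxib against control it was 0.59 ± 0.23 (edgeR adjusted p = 0.911), and 0.25 without TAA+celecoxib 2. Hk2, the inducible hexokinase, was at 47.6, 34.8 and 44.3 CPM in TAA+celecoxib, at 43.6, 53.15 and 57.4 CPM in TAA, against 38.7, 54.65 and 39.7 CPM in control, with all 3 groups overlapping. Its log2 fold change for TAA+celecoxib against TAA was -0.28 ± 0.18 (edgeR adjusted p = 0.890).

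Slc16a3 encodes MCT4, the lactate exporter of strongly glycolytic cells. It was at 4.18, 13.3 and 8.91 CPM in TAA+celecoxib, at 13.6, 13.4 and 25.3 CPM in TAA, against 6.29, 11.4 and 10.8 CPM in control. TAA libraries were above all others, but TAA+celecoxib 2 came close to the lowest of them. The fitted log2 fold change was 0.88 ± 0.44 for TAA against control (edgeR adjusted p = 0.788), and 0.51 without TAA 3. For TAA+celecoxib against TAA it was -0.99 ± 0.44 (edgeR adjusted p = 0.890), and -0.62 without TAA 3 or -0.65 without TAA+celecoxib 1.

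TAA 3 was also the library with the most granulocyte transcripts. The 12 markers of neutrophils and their precursors summed to 384, 910 and 450.5 CPM in TAA+celecoxib, to 651, 539 and 2495 CPM in TAA, against 109, 418 and 360.1 CPM in control, with S100a9 at 1009 CPM and S100a8 at 652 CPM in TAA 3. Ltf was at no more than 0.479 CPM in any library. Hk3, the hexokinase of myeloid cells, was at 17.75 CPM in TAA 3 and between 5.0 and 9.19 CPM in the other libraries. Macrophage markers were highest in TAA 3 too, at 8747 CPM, with Vcam1 at 1783 CPM and C1qc at 1385 CPM, and the part of these cells in the Slc16a3 and Hk3 values was not tested.

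**Figure D3:**
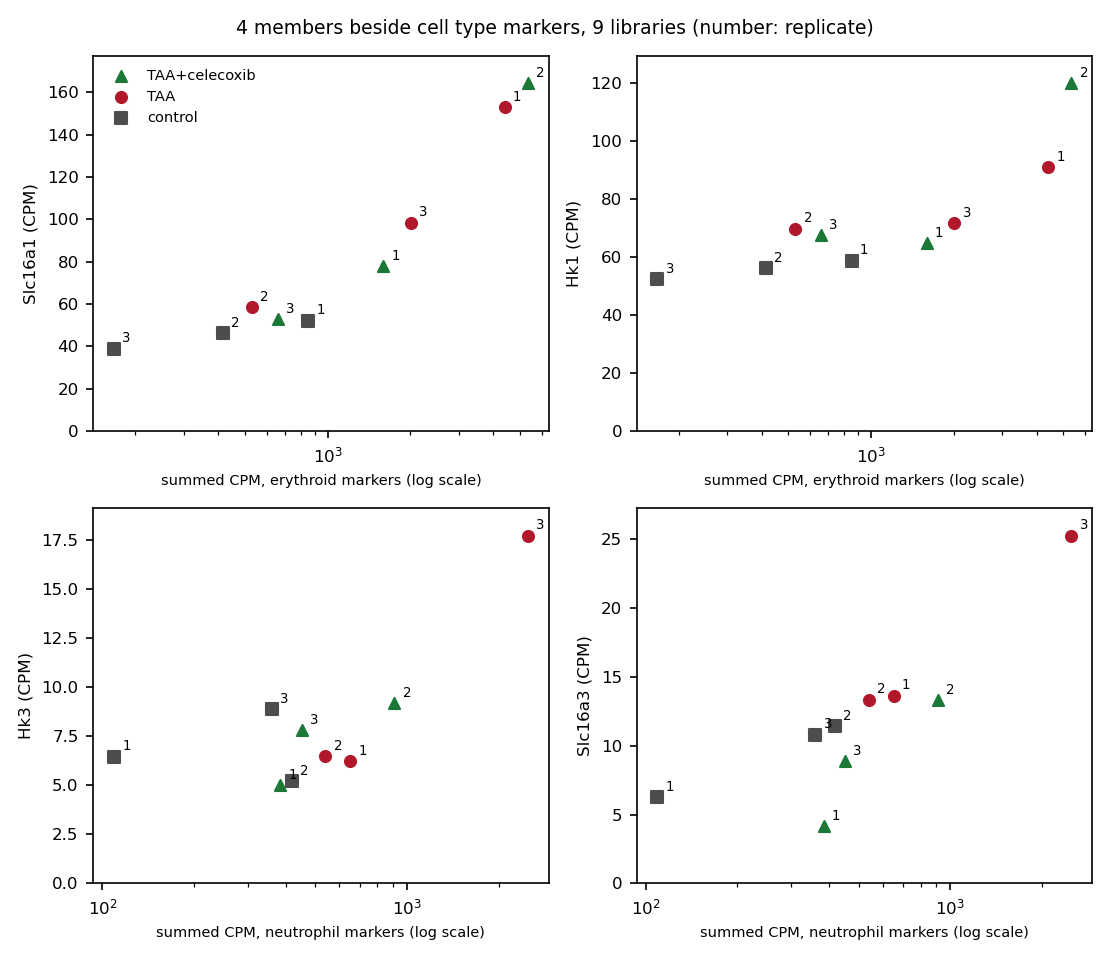
CPM of Slc16a1 and Hk1 against the summed CPM of 11 erythroid markers, and of Hk3 and Slc16a3 against that of 12 neutrophil and precursor markers (log scale), with 1 point per library and its replicate number. Slc16a1 and Hk1 are highest in TAA+celecoxib 2 and TAA 1, which have the highest erythroid sums, and Hk3 and Slc16a3 in TAA 3, which has the highest neutrophil sum.

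The members that carry glucose were Slc2a1 and Slc2a3. Slc2a1, which encodes the basal transporter GLUT1, averaged 33.2 ± 6.41 CPM in TAA+celecoxib, 33.2 ± 2.58 CPM in TAA, against 36.5 ± 5.70 CPM in control (SD, n = 3 each), with overlap between all groups. Its log2 fold change was -0.14 ± 0.17 for TAA against control and 0.0014 ± 0.17 for TAA+celecoxib against TAA. Slc2a3, for the high-affinity transporter GLUT3, held 2, 3 and 22 counts in TAA+celecoxib, 29, 2 and 32 counts in TAA, and 30, 0 and 32 counts in control.

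These low counts of Slc2a3 split into libraries at or under 3 counts and libraries at 22 or more within each group. A neighbouring entry of chromosome 4, LOC100909595, described as a GLUT3-like transporter, held 14, 21 and 28 counts in TAA+celecoxib, 35, 23 and 16 counts in TAA, and 28, 22 and 10 counts in control. Tpi1, triosephosphate isomerase, which interconverts the 2 triose phosphates, had a similar partner. It held 58, 32 and 9 counts in TAA+celecoxib, 18, 78 and 48 counts in TAA, and 47, 61 and 23 counts in control. LOC100911515, described as triosephosphate isomerase-like, held 376, 170 and 585 counts in TAA+celecoxib, 853, 175 and 756 counts in TAA, and 236, 236 and 1135 counts in control. The libraries with the fewest Tpi1 counts, TAA+celecoxib 3, TAA 1 and control 3, had the most counts of this entry in their groups. Levels of Tpi1 and Slc2a3, and that of Eno2 given below, are therefore uncertain.

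**Figure D4:**
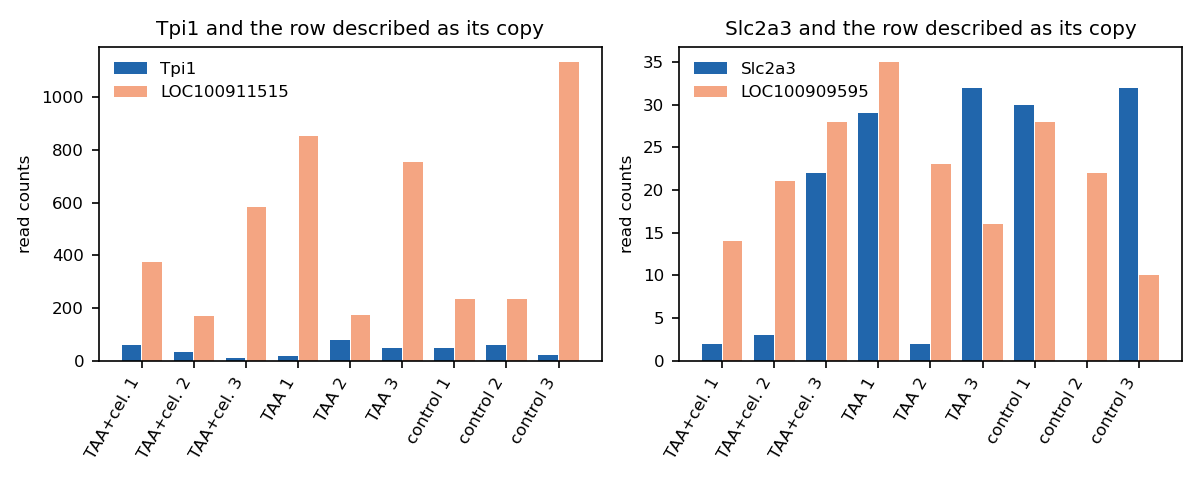
Read counts of Tpi1 and Slc2a3 (dark bars) beside those of the entries described as triosephosphate isomerase-like and GLUT3-like (light bars) in each of the 9 libraries. Tpi1 holds 9 to 78 counts where the entry like it holds 170 to 1135, and Slc2a3 holds 0 to 32 where the entry like it holds 10 to 35.

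The remaining steps between glucose and pyruvate differed little. Aldoa was at 458, 447 and 448 CPM in TAA+celecoxib, at 441, 521 and 577 CPM in TAA, against 422, 471 and 529.8 CPM in control, with overlap throughout. Its log2 fold change was -0.19 ± 0.14 for TAA+celecoxib against TAA. Gpi was at 397, 335 and 351 CPM in TAA+celecoxib, at 309, 349.7 and 335 CPM in TAA, against 361.5, 298 and 317 CPM in control, so the groups could not be separated. Pgam1 was at 274, 226 and 272 CPM in TAA+celecoxib, at 281, 305 and 309 CPM in TAA, against 307, 306 and 302 CPM in control. The TAA+celecoxib libraries of Pgam1 lay below all others, by a log2 fold change of -0.24 ± 0.11 against control (edgeR adjusted p = 0.911) and -0.21 ± 0.11 against TAA (edgeR adjusted p = 0.890). Pgk1 averaged 305 ± 64.7 CPM in TAA+celecoxib, 313 ± 20.3 CPM in TAA, against 316 ± 31.5 CPM in control, and Eno1 437 ± 76.6, 469 ± 23.5 and 417 ± 13.8 CPM in the same groups (SD, n = 3 each).

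Aldoc, the brain-type aldolase, was at 0.00294 to 0.00517 times the FPKM of Aldoa across the 9 libraries. Eno2 held 2, 1 and 0 counts in TAA+celecoxib, 0, 0 and 1 counts in TAA, and 37, 3 and 6 counts in control. The control level of Eno2 thus rests on control 1. A further entry, LOC100911625, is described as gamma-enolase-like. It held 1, 2 and 22 counts in TAA+celecoxib, 1, 1 and 4 counts in TAA, and 4, 3 and 2 counts in control. TAA+celecoxib 3, with 0 counts of Eno2, thus held the most of this entry, and the level of Eno2 is uncertain.

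The members include 4 kinases that switch off pyruvate dehydrogenase. Pdk3 was at 44.4, 55.1 and 34.4 CPM in TAA+celecoxib, at 41.6, 36.2 and 44.1 CPM in TAA, against 31.6, 33.5 and 31.4 CPM in control. Both groups given TAA were above the controls, with log2 fold changes of 0.34 ± 0.17 for TAA (edgeR adjusted p = 0.788) and 0.47 ± 0.17 for TAA+celecoxib (edgeR adjusted p = 0.911, and 0.29 log2 without TAA+celecoxib 2). Pdk1, a target of hypoxia-inducible factor, was at 18.2, 20.5 and 20.6 CPM in TAA+celecoxib, at 20.2, 15.9 and 19.2 CPM in TAA, against 18.4, 14.8 and 13.9 CPM in control. The groups of Pdk1 overlapped, and its log2 fold change for TAA+celecoxib against control was 0.34 ± 0.16 (edgeR adjusted p = 0.911).

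Pdk4, the kinase induced by fasting, was at 5.51, 3.02 and 4.06 CPM in TAA+celecoxib, at 3.06, 5.0 and 14.05 CPM in TAA, against 4.87, 8.39 and 12.6 CPM in control. The groups overlapped, and the log2 fold change of -0.82 ± 0.57 for TAA+celecoxib against TAA (edgeR adjusted p = 0.890) became 0.06 without TAA 3. Against control it was -1.04 ± 0.57 (edgeR adjusted p = 0.912), and -0.66 without control 3. Pdk2 averaged 8.86 ± 1.04 CPM in TAA+celecoxib, 10.4 ± 1.14 CPM in TAA, against 10.4 ± 1.73 CPM in control (SD, n = 3 each). The enzyme they act on, with subunits from Pdha1 and Pdhb, had log2 fold changes between -0.18 and 0.19 in the 3 comparisons.

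The level of the regulatory fructose bisphosphate that drives phosphofructokinase is set by the Pfkfb enzymes and, in the other direction, by Tigar. Pfkfb2 was at 14.8, 26.6 and 15.2 CPM in TAA+celecoxib, at 23.3, 19.9 and 25.6 CPM in TAA, against 20.7, 16.5 and 16.8 CPM in control, with overlap between all groups and a log2 fold change of 0.35 ± 0.24 for TAA against control (edgeR adjusted p = 0.790). Pfkfb3, the inducible form, averaged 62.1 ± 5.47 CPM in TAA+celecoxib, 68.7 ± 5.79 CPM in TAA, against 64.8 ± 6.50 CPM in control (SD, n = 3 each). Pfkfb3 ran at 1.55 to 2.63 times the FPKM of Tigar in TAA+celecoxib, 2.21 to 3.44 times in TAA and 1.75 to 2.63 times in control. Pfkfb4 was lower, at 1.33 to 6.24 CPM, 4.62 to 5.48 CPM and 1.42 to 4.61 CPM in TAA+celecoxib, TAA and control libraries.

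Set against the whole transcriptome, no member passed the threshold in any comparison in edgeR or limma-voom. In DESeq2, Ldhb and Pkm passed it for TAA+celecoxib against TAA. For TAA against control, edgeR's quasi-likelihood test called 0 of 30 members and 0 of all 15954 genes (0%) at an adjusted p under 0.05. At an unadjusted p under 0.05 there were 4 members (13.3%), Ldhb, Pkm, Slc16a1 and Pfkl, against 957 genes (6.0%). DESeq2 called 0 members and 58 genes (0.387%), and limma-voom called 0 of both.

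Of the 30 members, 23 had higher and 7 lower fitted values in TAA, where 50.2% of all genes were higher. Their median log2 fold change was 0.17, against 0.0017 for all genes. The libraries of TAA lay wholly above control for 9 members and wholly below for 1, together 33.3%, against 6.94% of all genes above, 7.89% below and 14.8% in all. Those above were Ldhb, Pkm, Pfkl, Slc16a1, Slc16a3, Hk1, Pdk3, Eno1 and Pfkfb4, and Pfkp was below. Pfkfb4 was separated only by 4.618 CPM in the lowest TAA library against 4.614 CPM in the highest control. Fitted values ran between -0.22 and 1.17, and 4 members (13.3%) differed by more than 1.5-fold, against 15.6% of all genes.

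For TAA+celecoxib against TAA, edgeR again called 0 members and 0 genes (0%). At an unadjusted p under 0.05 there were 3 members (10%), Ldhb, Pkm and Pfkl, against 812 genes (5.09%). DESeq2 called 2 members, Ldhb (log2 fold change -0.89, DESeq2 adjusted p = 0.0147) and Pkm (-0.39, DESeq2 adjusted p = 0.0270), among 25 genes in all (0.157%), while limma-voom called 0. Lower values were found for 21 members and higher for 9, where 51.2% of all genes were higher, with a median of -0.17 against 0.0071 for all genes. Libraries of TAA+celecoxib lay wholly below TAA for 5 members and wholly above for 0, together 16.7%, against 5.03% of all genes below, 5.87% above and 10.9% in all. This comparison and the previous one share the 3 TAA libraries, so opposite signs in them are not independent.

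For TAA+celecoxib against control, edgeR called 0 members and 0 genes (0%), and at an unadjusted p under 0.05 there were 3 members (10%), Pdk3, Hk1 and Slc16a1, against 803 genes (5.03%). DESeq2 called 0 members and 27 genes (0.170%), and limma-voom 0 of both. The median was -0.05 against 0.0012 for all genes, with 12 members higher and 18 lower, where 50.2% of all genes were higher. Groups did not overlap for 3 members above and 2 below (16.7%), against 5.27% of all genes above, 4.42% below and 9.68% in all. A test for any difference among the 3 groups gave 0 calls in edgeR (0%), with Ldhb, Pkm and Pfkl among 754 genes (4.73%) at an unadjusted p under 0.05. DESeq2 called 2 members and 73 genes (0.488%) in that test, and limma-voom 0.

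**Figure D5:**
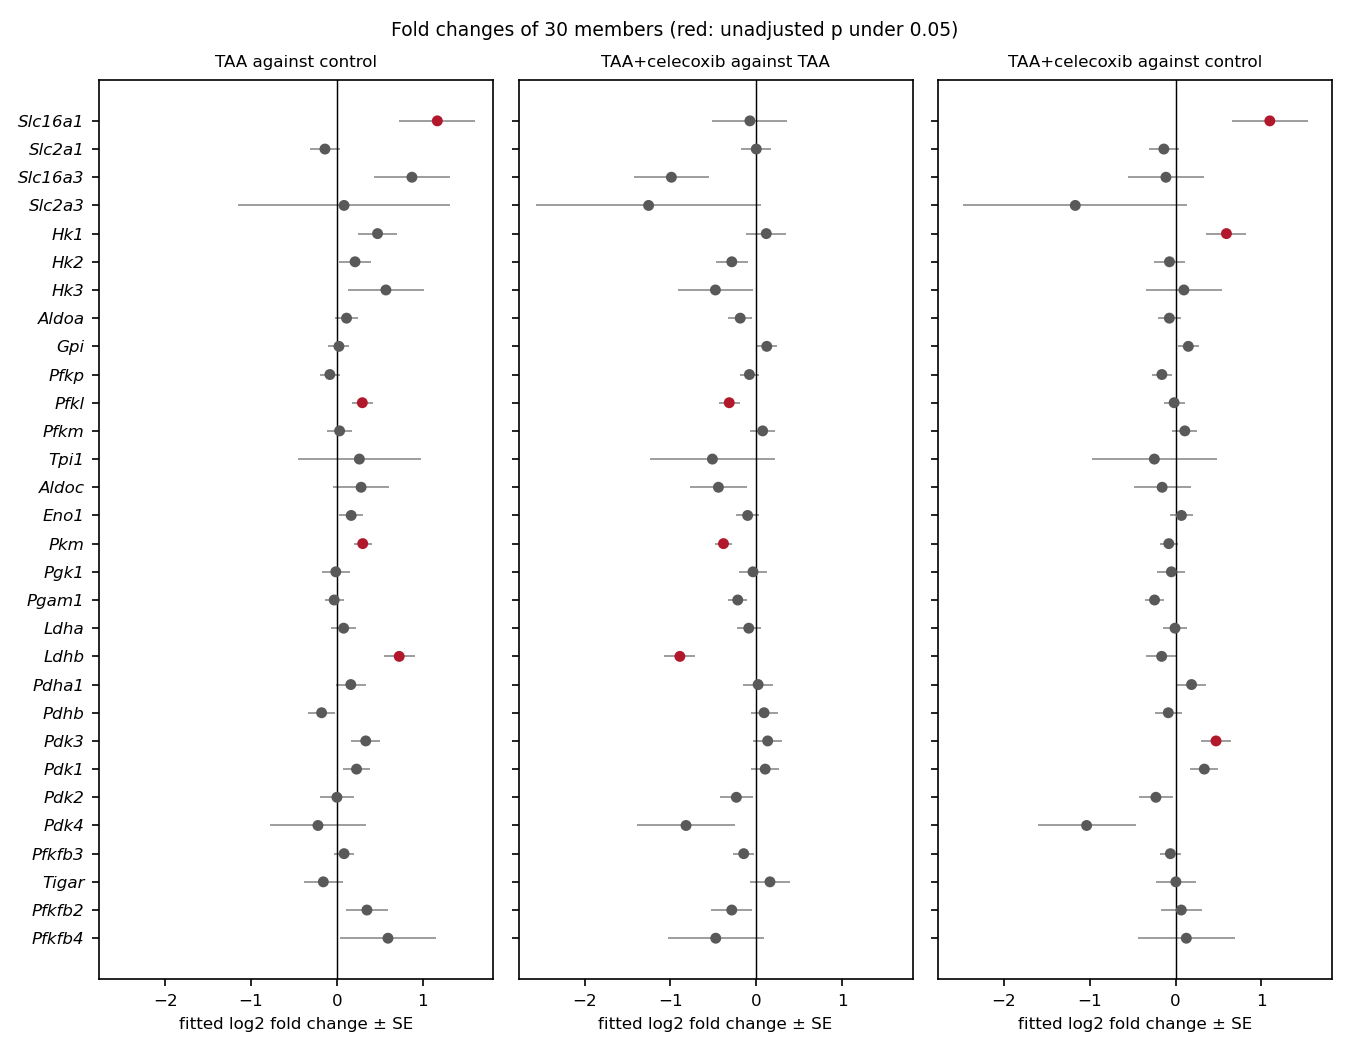
Fitted log2 fold changes ± SE from edgeR for the 30 members tested, in 3 panels for TAA against control, TAA+celecoxib against TAA and TAA+celecoxib against control, with red points for an unadjusted p under 0.05. Ldhb, Pkm and Pfkl are right of 0 in the first panel, left of it in the second and near it in the third, while Slc16a1 and Hk1 are right of 0 in both comparisons with control.

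The wider pathway was read from 7 lists of other genes with 70 tested members, of which edgeR, DESeq2 and limma-voom each called 0 in every comparison. At an unadjusted p under 0.05 in edgeR there were 4 genes for TAA against control, 3 for TAA+celecoxib against TAA and 4 for TAA+celecoxib against control. These are 5.71%, 4.29% and 5.71% of the 70, near the 6.0%, 5.09% and 5.03% of all genes. For enzymes of glycolysis outside the 32, the median log2 fold change of 11 tested genes was 0.34 for TAA against control, -0.02 for TAA+celecoxib against TAA and 0.17 for TAA+celecoxib against control. Bpgm, which makes the haemoglobin ligand bisphosphoglycerate in red cells, was at 109, 299 and 86.5 CPM in TAA+celecoxib, at 198, 71.7 and 124 CPM in TAA, against 82.5, 74.5 and 64.1 CPM in control. It was thus high in the libraries with the highest erythroid sums. Adpgk, an ADP-dependent glucokinase, averaged 51.8 ± 10.1 CPM in TAA+celecoxib, 56.6 ± 12.3 CPM in TAA, against 42.3 ± 0.87 CPM in control (SD, n = 3 each), and Pgam2, the muscle mutase, 7.65 ± 1.49, 8.75 ± 0.98 and 6.03 ± 1.53 CPM in the same groups. Pfkfb1, a low-level member of the Pfkfb family, was at 2.21, 2.38 and 1.47 CPM in TAA+celecoxib, at 1.07, 1.16 and 0.574 CPM in TAA, against 0.986, 0.5004 and 0.569 CPM in control. Its log2 fold change was 1.55 ± 0.43 for TAA+celecoxib against control (edgeR adjusted p = 0.911) and 1.11 ± 0.42 against TAA (edgeR adjusted p = 0.890). Pgm1, phosphoglucomutase, had -0.23 ± 0.16 for TAA+celecoxib against TAA.

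In the pentose phosphate pathway, which branches from glycolysis to make NADPH and ribose, 5 of 9 tested genes were higher in TAA than in control, with a median of 0.02. Tkt, transketolase, was at 347, 458 and 355 CPM in TAA+celecoxib, at 446, 489 and 483 CPM in TAA, against 318, 366 and 386 CPM in control. Taldo1, transaldolase, was at 221, 279 and 228 CPM in TAA+celecoxib, at 316, 260.0 and 301 CPM in TAA, against 229, 252 and 232 CPM in control. Both enzymes, which shuttle carbon back to glycolysis, were above all controls in the TAA libraries, with log2 fold changes of 0.41 ± 0.14 and 0.30 ± 0.13 (edgeR adjusted p = 0.788 for each). H6pd had -0.60 ± 0.26 for TAA+celecoxib against TAA (edgeR adjusted p = 0.890), and Prps1 and Rpe had 0.20 ± 0.19 and 0.10 ± 0.11 for TAA+celecoxib against control.

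Of the other lactate and sugar transport genes, 7 of 8 tested were higher in TAA than control (median 0.21), where 50.2% of all genes were higher. In TAA+celecoxib against TAA, which shares the TAA libraries, 1 of 8 was higher (median -0.18), where 51.2% of all genes were. Emb had log2 fold changes of 1.62 ± 0.64 for TAA against control (edgeR adjusted p = 0.788) and 1.54 ± 0.63 for TAA+celecoxib against control (edgeR adjusted p = 0.911). Bsg, basigin, the main partner of MCT1 and MCT4 at the membrane, averaged 216 ± 11.8 CPM in TAA+celecoxib, 278 ± 30.8 CPM in TAA, against 261.5 ± 53.6 CPM in control (SD, n = 3 each). Its log2 fold change was -0.36 ± 0.16 for TAA+celecoxib against TAA (edgeR adjusted p = 0.890) and -0.28 ± 0.16 against control (edgeR adjusted p = 0.912). Slc2a6, a lysosomal sugar transporter, was at 12.5, 10.1 and 7.16 CPM in TAA+celecoxib, at 13.8, 19.4 and 12.2 CPM in TAA, against 16.2, 11.95 and 12.1 CPM in control, with overlap throughout. Slc2a8 had 0.25 ± 0.16 for TAA against control.

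The list for hypoxia-inducible factor showed no common direction. It mixed subunits of the factor (Hif1a, Epas1 and Arnt) and negative regulators such as Vhl and Hif1an with targets. The tally thus does not describe targets alone, and glycolytic enzymes, many of which are targets, were not on the list. Of 20 tested genes 11 were higher in TAA than control (median 0.03), 9 in TAA+celecoxib than TAA (median -0.01) and 11 in TAA+celecoxib than control (median 0.01). Vegfa, the angiogenic growth factor, averaged 62.1 ± 14.7 CPM in TAA+celecoxib, 56.7 ± 14.1 CPM in TAA, against 76.5 ± 6.30 CPM in control (SD, n = 3 each), a log2 fold change of -0.43 ± 0.21 for TAA against control (edgeR adjusted p = 0.788). Bnip3l, a receptor for the clearance of mitochondria in maturing red cells, was at 237, 422 and 195 CPM in TAA+celecoxib, at 305, 186 and 249 CPM in TAA, against 192.5, 174.5 and 172 CPM in control, again highest in TAA+celecoxib 2 and TAA 1. Arnt, the partner subunit of the factor, had 0.34 ± 0.19 for TAA against control, Mxi1 0.50 ± 0.27 for TAA+celecoxib against control, and Ndrg1 -0.34 ± 0.18, Bnip3 -0.16 ± 0.16 and P4ha1 -0.46 ± 0.46 for TAA+celecoxib against TAA.

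The last 3 lists held regulators and the fates of pyruvate. Among 10 tested regulators, Foxo3, a transcription factor of the fasting response, was at 37.9, 82.7 and 47.0 CPM in TAA+celecoxib. It was at 85.0, 50.7 and 78.1 CPM in TAA, against 26.2, 40.0 and 47.1 CPM in control. The log2 fold change of Foxo3 was 0.92 ± 0.33 for TAA against control (edgeR adjusted p = 0.788) and 0.56 ± 0.33 for TAA+celecoxib against control. Foxo3 was highest in TAA 1, TAA+celecoxib 2 and TAA 3, which had the highest erythroid sums. The part of erythroid cells in its values was not tested. Myc, a transcription factor that induces glycolytic genes, averaged 104 ± 33.4 CPM in TAA+celecoxib, 83.9 ± 8.19 CPM in TAA, against 105 ± 7.50 CPM in control, and Prkaa1, a catalytic subunit of AMP-activated kinase, 65.9 ± 13.9, 51.7 ± 6.62 and 52.7 ± 1.38 CPM in the same groups (SD, n = 3 each). Of 9 tested genes for the entry of pyruvate into mitochondria, Pc, pyruvate carboxylase, averaged 25.7 ± 10.6 CPM in TAA+celecoxib, 37.7 ± 14.5 CPM in TAA, against 22.1 ± 4.45 CPM in control. Mpc2, a subunit of the mitochondrial pyruvate carrier, had -0.28 ± 0.16 and Pdp2, a pyruvate dehydrogenase phosphatase, 0.29 ± 0.18 for TAA+celecoxib against control. Pdhx had 0.17 ± 0.12 for TAA against control and Pdpr -0.34 ± 0.23 for TAA+celecoxib against TAA.

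Gluconeogenesis, the reverse route, had 3 genes above the filter. Pck2, the mitochondrial carboxykinase, averaged 32.4 ± 14.2 CPM in TAA+celecoxib, 27.1 ± 12.3 CPM in TAA, against 18.6 ± 3.56 CPM in control (SD, n = 3 each), with 0.80 ± 0.39 for TAA+celecoxib against control (edgeR adjusted p = 0.911). Pck2 was highest in TAA+celecoxib 2 (46.6 CPM) and TAA 1 (41.3 CPM), which had the highest erythroid sums. Slc37a4, the glucose phosphate carrier of the endoplasmic reticulum, had -0.22 ± 0.15 for TAA against control, and G6pc3, the ubiquitous glucose phosphatase, 0.13 ± 0.16 for TAA+celecoxib against TAA.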

How the data were processed

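For 9 libraries the authors deposited raw counts of reads for each gene, and FPKM. In the deposited tables FPKM is the count over gene length, scaled by a constant for each library. HISAT2 2.0.5 and build mRatBN7.2 are named in the submitters' processing notes, while no source used here names the counting tool, annotation or strand setting, so reads of overlapping antisense genes cannot be told apart. Coordinates in the files reach 282724300 on chromosome 1, so their build is unresolved and they are printed as given. Unnamed gene models held 1.43% to 1.77% of counts.

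Counts were fitted with edgeR 4.0.16 (R 4.3.3), quasi-likelihood, all 9 libraries by group, TMM scaling, filterByExpr (minimum count 10, total 15), 2-sided, with Benjamini-Hochberg adjustment over 15954 genes and a threshold of 0.05. SE is the log2 fold change divided by the root of its F statistic. DESeq2 1.42.0 and limma 3.58.1 were alternatives. Scripts were tested on simulated data. The common biological coefficient of variation was 0.311. Values in every library are given for the 8 members with the smallest unadjusted p in each comparison, and of each pathway list the 2 genes with the smallest p are named; other members named were chosen after their values were seen. Members and lists were chosen with earlier results of these data known. Every pair of libraries differed by more than sampling noise (chi-square over its degrees of freedom at least 16.4). Deviations of same-numbered libraries correlated at 0.533, 0.203 and 0.369 between TAA+celecoxib and control. The labels name no pairing, and so few correlations cannot establish one. In the other pairs of groups they were at -0.258 to 0.277, where not all were over 0.1. Protein sequences were not used here. Isozyme ratios, promoter motifs and list medians are descriptions with no test.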

Additional observations from a re-analysis of the deposited data

How the results depend on the processing

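Of the alternatives run, DESeq2 changed most: it called 58 genes for TAA against control, 25 for TAA+celecoxib against TAA, 27 for TAA+celecoxib against control and 73 for any difference, where edgeR called 0 in each. It called 2 members, Ldhb and Pkm, in TAA+celecoxib against TAA, and 2 in the test for any difference. The cause was not tested. A fit of only the 2 groups compared called 1 gene for TAA+celecoxib against control. Leaving out 1 library at a time gave 0 to 1, 0 to 3 and 0 to 2 genes for the 3 comparisons in the order above and 0 to 2 for any difference, and 0 members throughout. Without TAA 1 there were 3 genes for TAA+celecoxib against TAA, 2 for TAA+celecoxib against control and 2 for any difference. Without TAA+celecoxib 2 there were 1 for TAA against control and 2 for any difference, and without TAA+celecoxib 1 there was 1 for any difference. The members' median stayed between 0.12 and 0.21 for TAA against control and between -0.22 and -0.10 for TAA+celecoxib against TAA without any 1 library, but ran between -0.11 and 0.03 for TAA+celecoxib against control. Pdk4 ran between -1.20 without TAA 1 and 0.059 without TAA 3 for TAA+celecoxib against TAA. Deviations of same-numbered libraries all correlated at over 0.1 for TAA+celecoxib and control only, and 6 of 9 libraries correlated best with their own number. With the replicate number as a block, edgeR called 0 genes and 0 members in each comparison, and the members' medians were 0.19, -0.16 and -0.06. A block fit of TAA+celecoxib and control alone, chosen after seeing the data, also called 0 of both, with a median of -0.06. Adding the counts of entries with similar descriptions to members, chosen after seeing the data, changed no call in edgeR. DESeq2 was not rerun on those counts, so its call of Pkm was not tested with the similar entries added. A common coefficient of variation of 0.311 with 3 libraries a group limits detection, and counts of Tpi1, Slc2a3 and Eno2 are low.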
